A study of Mus musculus with 31 samples.

Results

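Gfap, Vim, Serpina3n, Cd44, Osmr, S1pr3 and Steap4, a set of genes linked to astrocyte reactivity, were followed in the cortex and in CD11b+ brain cells of mice carrying the protective PLCγ2-P522R variant. They were taken by gene symbol from the raw count tables, and they make up 7 of 55401 annotated genes. The study crossed mice whose transgenes make them deposit β-amyloid in the brain (A+) with PLCγ2-P522R knock-in (KI) mice. RNA-seq was carried out on 31 samples taken at 13 months of age. The cortex samples, temporo-occipital cortex of females, comprised 1 A-/Pwt/wt mouse with neither transgenes nor variant, 4 A+/Pwt/wt mice with the transgenes and normal PLCγ2, and 4 A+/Pki/ki mice with the transgenes and homozygous for the variant. The CD11b+ samples were pulled from whole dissociated brains of perfused mice with magnetic beads, and comprised 7 A-/Pwt/wt, 4 A+/Pwt/wt and 4 A+/Pki/ki females as well as 3 A-/Pwt/wt and 4 A-/Pki/ki males. The knock-in is present in every cell of the mouse, astrocytes included. Homozygous KI females without transgenes and males with transgenes were not analysed here.

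Astrocytes respond to amyloid plaques and to injury by enlarging their processes and by changing gene expression, a response called astrocyte reactivity. Its hallmark is the accumulation of intermediate filaments built from GFAP and vimentin, and it is accompanied by secreted factors such as the serine protease inhibitor encoded by Serpina3n. Cytokines of the interleukin-6 family, oncostatin M among them, signal through gp130, JAK kinases and STAT3, a pathway known to drive Gfap. Microglia are the main brain cells that carry CD11b and PLCγ2, and some of their products, including interleukin-1α, TNF and C1q, can induce reactive astrocytes. Gfap is almost restricted to astrocytes in the adult brain, whereas Vim, Cd44, Osmr, S1pr3 and Steap4 are also used by vascular, meningeal or myeloid cells.

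In GRCm38 coordinates of the Gencode annotation, Gfap (ENSMUSG00000020932, glial fibrillary acidic protein) spans chr11:102887336-102900912 on the minus strand and Vim (ENSMUSG00000026728, vimentin) spans chr2:13573927-13582826 on the plus strand. Serpina3n (ENSMUSG00000021091) lies within a cluster of related inhibitor genes at chr12:104406729-104414329, plus strand. Cd44 (ENSMUSG00000005087), a receptor for hyaluronan and osteopontin, lies at chr2:102811141-102901665 on the minus strand. Osmr (ENSMUSG00000022146), the oncostatin M receptor subunit, lies at chr15:6813577-6874969 on the minus strand, and S1pr3 (ENSMUSG00000067586), a receptor for sphingosine 1-phosphate, at chr13:51408639-51422797 on the plus strand. Steap4 (ENSMUSG00000012428), a metalloreductase of the plasma membrane, lies at chr5:7960457-7982213 on the plus strand. All 7 genes are protein coding and were counted over their exons. Of the 50-base stretches in Serpina3n transcripts, 6.9% also occur in other genes, mostly neighbours of the Serpina3 cluster, so a few of its reads could not be placed uniquely. Those neighbours were nearly silent, with 10 of them summing to between 0.2 and 1.63 CPM in any library, where CPM is the read count scaled to library size (the usual per-megaread unit). S1pr3 shares 49 exonic bases with Gm32834 on the opposite strand, and reads were counted without regard to strand.

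The 250 bases before the RefSeq transcription start (GRCm38.p6) of Gfap, Serpina3n and Steap4 are shown. They were picked because the first 2 genes rose together in the transgenic cortex, while no rise was detected for Steap4. Steap4 had only 8 to 16 reads a library there. What a match does to expression was not tested. In lower case, 5′ to 3′, capitals mark matches on either strand to TTCNNNGAA (the STAT dimer motif) and to TATAAA (the TATA box).
Gfap, chr11:102897201-102897450, minus strand: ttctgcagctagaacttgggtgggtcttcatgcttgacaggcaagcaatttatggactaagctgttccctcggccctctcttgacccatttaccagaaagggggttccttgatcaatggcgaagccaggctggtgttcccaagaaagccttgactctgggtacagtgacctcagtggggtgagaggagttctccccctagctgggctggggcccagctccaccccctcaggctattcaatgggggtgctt
Serpina3n, chr12:104406458-104406707, plus strand: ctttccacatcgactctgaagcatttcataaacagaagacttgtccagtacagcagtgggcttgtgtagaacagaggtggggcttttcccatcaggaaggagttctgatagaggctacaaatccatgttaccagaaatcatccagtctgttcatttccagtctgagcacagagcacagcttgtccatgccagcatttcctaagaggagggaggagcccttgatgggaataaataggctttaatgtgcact
Steap4, chr5:7960222-7960471, plus strand: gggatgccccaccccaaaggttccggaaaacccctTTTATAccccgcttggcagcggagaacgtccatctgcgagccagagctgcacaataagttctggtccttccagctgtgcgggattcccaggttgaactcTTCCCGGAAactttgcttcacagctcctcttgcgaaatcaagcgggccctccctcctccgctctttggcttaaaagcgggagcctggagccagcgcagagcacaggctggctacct
Among 32851 mouse promoter windows of this length, 7.02% held TTCNNNGAA, 6.75% held TGANTCA (the AP-1 motif) and 12.4% held TATAAA. These letters were found as TTCNNNGAA in 1 of the 7 promoters, that of Steap4, as TATAAA in 2, those of Steap4 and Vim, and as TGANTCA in 0. The Gfap and Serpina3n windows held none of these letters. The TATAAA match of Steap4 lay on the opposite strand and ended 210 bases from the start site. That of Vim lay on the gene's own strand and ended 27 bases from it. The GC content of the windows was 55.6% for Gfap, 46.4% for Serpina3n and 58.4% for Steap4, against a median of 52.4% over all windows.

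The libraries held 25.2 to 43.1 M counted reads in cortex, 18.9 to 25.1 M in female CD11b+ cells and 16.2 to 19.9 M in male CD11b+ cells. Cst7, a gene of plaque-associated microglia, separated all A+ from all A- libraries as labelled, at 34.5 to 56.7 CPM against 0.31 in cortex and at 533 to 918 CPM against 9.34 to 31 in female CD11b+ cells. The bead-selected fraction was rich in microglial RNA, and a sum of 10 microglial genes was 12112 to 27930 CPM there against 421 to 922 CPM in cortex. It also held RNA of other cells. A sum of 9 oligodendrocyte genes reached 6946 to 74270 CPM in the CD11b+ libraries, and a sum of 20 homeostatic astrocyte genes (among them Aqp4, Slc1a2, Slc1a3 and Aldoc) reached 1674 to 6212 CPM, against 6813 to 8457 CPM in cortex. No gene of the astrocyte list was at 0 in any group. The labels show the number 236 on mice of 2 groups with different transgene status, and both were used as labelled.

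Per kilobase of exon, the scale on which genes of unequal length can be set side by side, Gfap stood far above the other genes in cortex. In A+/Pwt/wt cortex the mean level was 210 CPM per kb for Gfap, 20.6 for Serpina3n, 12.8 for Vim, 2.08 for S1pr3, 1.11 for Cd44, 0.762 for Osmr and 0.132 for Steap4. The ranges over the 4 mice left Gfap clear of all the others, while Serpina3n (15.7 to 26.1) touched Vim (10.6 to 15.8), and Cd44 (0.729 to 1.79) met Osmr (0.671 to 0.9). In the A-/Pwt/wt cortex, which was 1 mouse, Gfap was at 42.8 CPM per kb and Vim, at 9.47, stood above Serpina3n, at 6.04. The order was different in the CD11b+ fraction. In A-/Pwt/wt females Vim led with 46 CPM per kb (39.2 to 54.8), Gfap followed at 16.6 (6.6 to 25.7), and S1pr3 (3.54), Cd44 (1.68), Osmr (1.36), Serpina3n (1.08) and Steap4 (0.39) overlapped with at least one neighbour in the order. Cortex and CD11b+ tables were counted and scaled separately, and levels between them were not tested.

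The first comparison addressed what the amyloid transgenes did to these genes in cortex. Gfap and Serpina3n were several fold higher in both A+ groups than in the A-/Pwt/wt cortex. Osmr and Vim lay above the A- mouse in every A+ mouse without passing the test, and Cd44, S1pr3 and Steap4 lay around its level. The A- group was 1 mouse, so the test borrowed its spread from the A+ groups and assumed that this library varies as they do. Gfap was at 180 CPM in the A-/Pwt/wt mouse. It was at 856, 1063, 1003 and 622 CPM in the A+/Pwt/wt mice and at 1104, 995, 722 and 903 CPM in the A+/Pki/ki mice. The lowest A+ value was thus still more than 3 times the A- value. The log2FC of Gfap was 2.30 (SE 0.30, FDR 0.00193), which is 4.91-fold, in A+/Pwt/wt mice, and 2.37 (SE 0.30, FDR 0.00173), which is 5.16-fold, in A+/Pki/ki mice.

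Serpina3n followed the same order. It was at 12.5 CPM in the A-/Pwt/wt cortex. The A+/Pwt/wt mice were at 36.5, 53.9, 47 and 32.5 CPM and the A+/Pki/ki mice at 44.9, 40.7, 31.5 and 38.1 CPM. No A+ value came near the A- value. The difference was 3.4-fold (log2FC 1.76, SE 0.27, FDR 0.00528) for A+/Pwt/wt and 3.11-fold (log2FC 1.64, SE 0.27, FDR 0.00931) for A+/Pki/ki. These 2 of 7 genes were called in each comparison, against 0.888% of all 18810 genes tested in A+/Pwt/wt and 0.829% in A+/Pki/ki. The comparisons share their single control.

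The second filament gene and the receptors had smaller differences. Vim was at 44.9 CPM in the A- cortex and at 60.7 ± 11.8 (SD, n = 4) and 59.6 ± 5.11 CPM (SD, n = 4) in A+/Pwt/wt and A+/Pki/ki mice, with log2FC 0.43 (FDR 0.558) and 0.41 (FDR 0.638). Osmr was at 5.39 CPM against 9.22 ± 1.32 and 9.43 ± 0.811 CPM (SD, n = 4 each), with log2FC 0.77 (SE 0.20, FDR 0.132) and 0.81 (SE 0.20, FDR 0.11). Osmr was called in both comparisons by the DESeq2 Wald test and, in A+/Pki/ki mice, without the filter on low counts. Its FDR over the alternatives ran from 0.0264 to 0.379 and from 0.0154 to 0.154, respectively. Cd44 (6.03 CPM in the A- cortex), S1pr3 (10.4 CPM) and Steap4 (0.334 CPM) lay within or beside the A+ ranges, with 95% intervals that included no change. For S1pr3 the interval of the log2FC was -0.54 to 0.20 in A+/Pwt/wt mice and -0.30 to 0.45 in A+/Pki/ki mice. Steap4 rested on 8 to 16 reads a library, and its interval in A+/Pki/ki mice, -1.49 to 1.12, included a 2-fold difference in either direction. Gfap, Vim, Serpina3n and Osmr were the 4 genes whose A+/Pwt/wt values did not overlap with the A- value, but with 1 control mouse 41.6% of all genes were separated in this way.

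**Figure D1:**
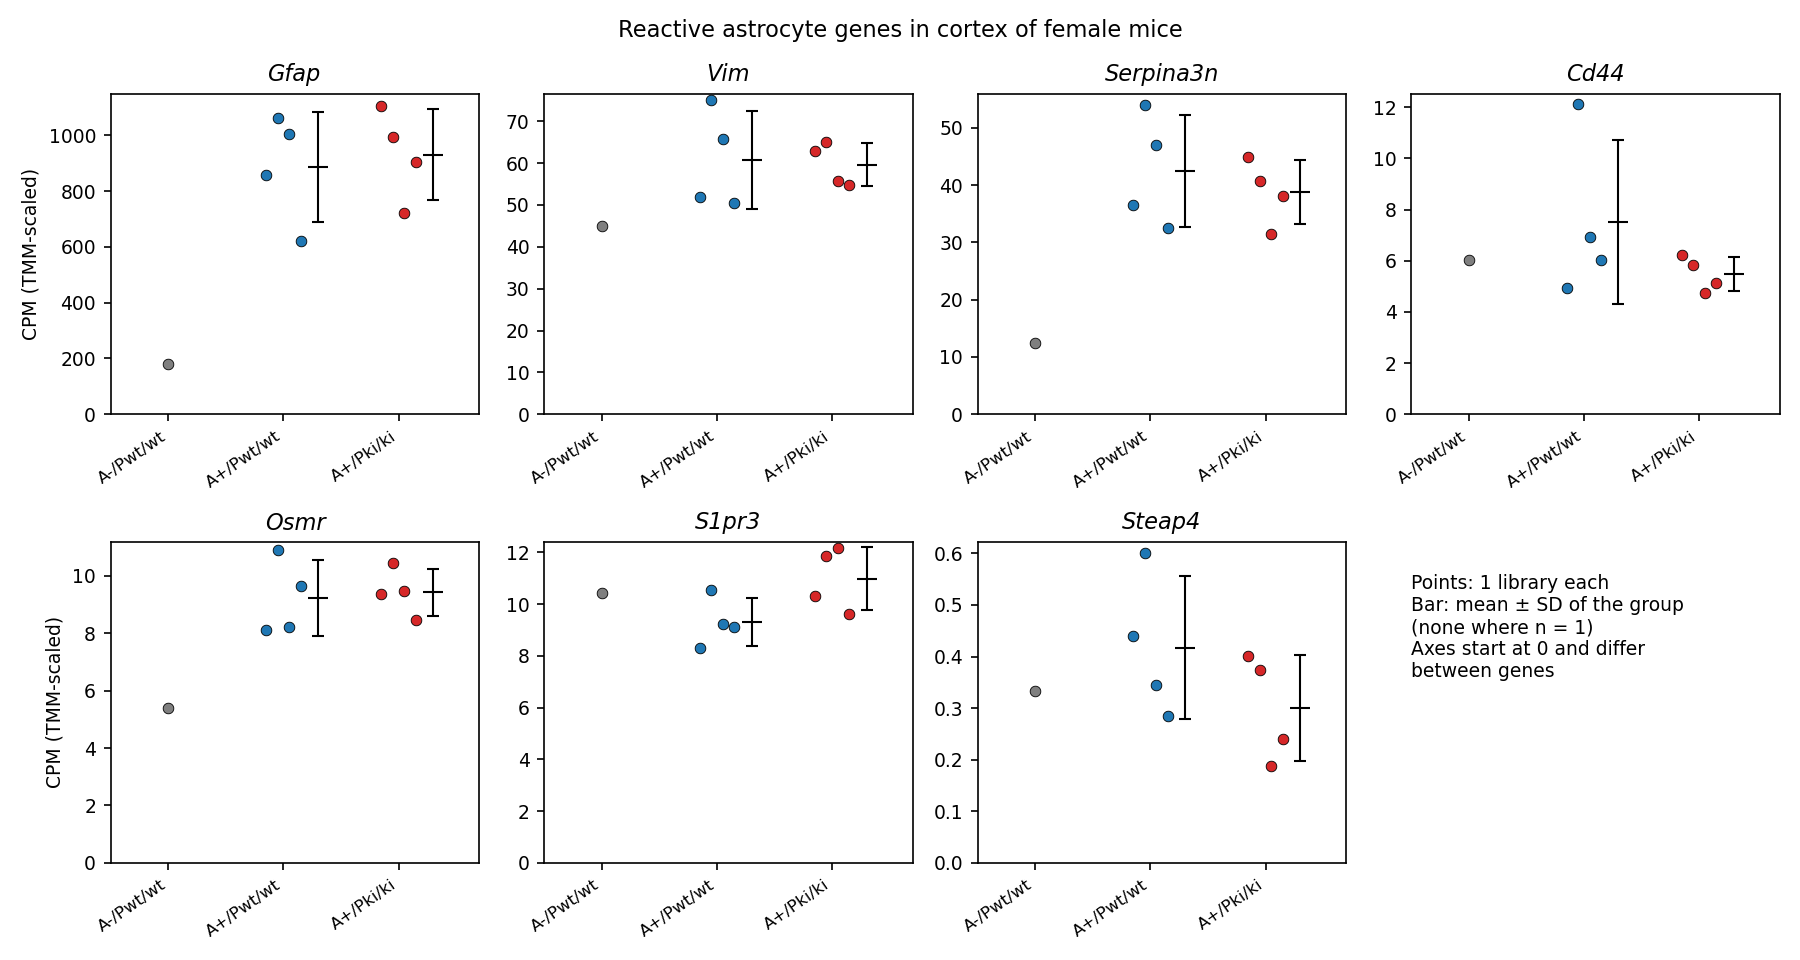
Levels of the 7 genes in female cortex in CPM, 1 point per mouse, with mean ± SD beside each group of 4 and none for the single A-/Pwt/wt mouse. Gfap and Serpina3n lie at 622 to 1104 and 31.5 to 53.9 CPM in the A+ mice against 180 and 12.5 CPM in the A- mouse, while the A+/Pwt/wt and A+/Pki/ki points overlap in all 7 panels.

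Markers of other cells in the same cortex libraries give the surroundings of the rise in Gfap and Serpina3n. The homeostatic astrocyte genes had a median log2FC of 0.08 in A+/Pwt/wt mice, and edgeR called 0 of 20, with 4 at an unadjusted p under 0.05. Their summed level was 6842 CPM in the A- mouse and 6813 to 8457 CPM in the A+ mice. Of the 14 plaque microglia genes 7 were higher, led by Cst7 (7.08), Clec7a (6.69) and Itgax (5.55) on the log2 scale, and 7 of 10 general microglial genes were higher too. In bulk tissue more cells of a type and more RNA per cell cannot be told apart. The part of the added microglial RNA in the member genes was not tested.

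Some other reactive astrocyte genes passed the test as well. In the pan-reactive and the 2 typed lists below, the share called lay above that of all genes, given above, on 1 gene a list. With 1 A- mouse a gene that did not pass may still differ. Of 6 further pan-reactive genes only Aspg, an asparaginase, was called, from 3.6 CPM to 8.01 ± 0.785 (SD, n = 4) in A+/Pwt/wt cortex (log2FC 1.15, FDR 0.00839) and to 8.44 ± 0.65 (SD, n = 4) in A+/Pki/ki cortex. The chemokine gene Cxcl10 (log2FC 2.15, FDR 0.0543) and the protease inhibitor gene Timp1 (2.10, FDR 0.322) had larger differences on low levels, at 0.453 CPM against 1.84 to 2.25 and at 0.119 CPM against 0.302 to 0.762 in A+/Pwt/wt mice, and did not pass. The stress protein gene Hspb1 (-0.22, FDR 0.863), the ceruloplasmin gene Cp (-0.31, FDR 0.739) and the lipocalin gene Lcn2 (-0.04, FDR 0.99) had negative differences. At an unadjusted p under 0.05 were 3 of the 6. Among 11 tested genes each of the neurotoxin-type (A1) and ischaemia-type (A2) lists, 1 passed in either list, and 5 and 1, respectively, had an unadjusted p under 0.05. They were the immunoproteasome gene Psmb8 (1.25, FDR 0.0282) and Cd14 (2.08, FDR 0.00528), a receptor of myeloid cells. The complement gene C1qa, which microglia make, rose from 52.1 to 149 ± 17.5 CPM in A+/Pwt/wt mice (SD, n = 4; log2FC 1.51). C1qc had a log2FC of 1.29 in A+/Pki/ki mice. Of 6 microglia-made inducers 5 were tested, and all 5 were on the positive side in both A+ groups. Their median log2FC was 1.06 in A+/Pwt/wt and 1.29 in A+/Pki/ki mice. None of the 16 tested genes of the oncostatin M and gp130 pathway, the 10 of the sphingosine 1-phosphate pathway, the 10 CD44 ligands and hyaluronan genes or the 13 other intermediate filament genes passed the edgeR test in either cortex comparison with the A- mouse (2, 0, 1 and 1 of them, respectively, had an unadjusted p under 0.05 in A+/Pwt/wt mice). The signalling subunit gene Il6st held at 80.7 CPM in the A- mouse and 88.2 ± 7.05 CPM (SD, n = 4) in A+/Pwt/wt mice, and the neurofilament gene Nefl at 322 and 341 ± 20.2 CPM (SD, n = 4).

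The next comparison asked whether the P522R variant changed these genes in the amyloid-bearing cortex. No difference was detected for any of the 7. Gfap was at 931 ± 162 CPM in A+/Pki/ki and 886 ± 196 CPM in A+/Pwt/wt mice (SD, n = 4 each), a log2FC of 0.07 (SE 0.16, FDR 1) with a 95% interval of -0.27 to 0.41. Serpina3n was at 38.8 ± 5.6 and 42.5 ± 9.78 CPM (SD, n = 4 each), a log2FC of -0.13 (SE 0.15, FDR 1) with an interval of -0.45 to 0.19. The ranges of the groups overlapped for all 7 genes. A 2-fold effect of the variant on Gfap, Vim, Serpina3n, Osmr, S1pr3 or Cd44 lies outside these intervals, the widest of which, for Cd44, was -0.94 to 0.05. S1pr3 was the only member with an unadjusted p under 0.05, at 11 ± 1.22 against 9.3 ± 0.923 CPM (SD, n = 4 each; log2FC 0.24, FDR 1). Cd44 differed by -0.45 (SE 0.23, FDR 1), and 1 A+/Pwt/wt mouse at 12.1 CPM lay well above the remaining 3 at 4.94 to 6.92 CPM. Without that mouse the log2FC of Cd44 was -0.12. edgeR called 0 of the 7 genes, DESeq2 0 and limma 0, and 0% of all 18640 genes were called, with 514 at an unadjusted p under 0.05.

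In CD11b+ cells of females no member passed the test of the transgenes. Gfap lay above the A-/Pwt/wt range in 3 of 4 mice of each A+ group, and it came near the threshold in A+/Pwt/wt mice. Vim, S1pr3 and Steap4 had negative differences in both A+ groups, while Osmr was near no change in A+/Pwt/wt mice (log2FC -0.04). The 7 A-/Pwt/wt females had Gfap levels of 27.8 CPM at the lowest, 76.9 at the median and 109 at the highest. The A+/Pwt/wt females were at 309, 149, 199 and 108 CPM and the A+/Pki/ki females at 141, 174, 123 and 77.2 CPM. The lowest value of each A+ group lay within the A- range and the other 3 lay above it. The log2FC of Gfap was 1.46 (SE 0.34, FDR 0.0604) in A+/Pwt/wt and 0.88 (SE 0.32, FDR 0.227) in A+/Pki/ki mice. The first of these FDR values ran from 0.00122 to 0.0768 over 8 alternatives and from 0.0434 (without A- mouse 223) to 0.193 on leaving out single mice, so the call turns on the processing.

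Serpina3n was scarce in CD11b+ cells. In the A-/Pwt/wt females it ranged from 0 to 4.12 CPM with a median of 2.96, from 0 to 74 reads a library. The mouse with 0 reads also had the lowest Gfap level. In the A+/Pwt/wt females it was at 7.82, 2.98, 6.82 and 4.2 CPM and in the A+/Pki/ki females at 2.63, 6.26, 2.9 and 1.09 CPM. All groups overlapped, and the log2FC was 1.32 (SE 0.73, FDR 0.618) and 0.54 (SE 0.83, FDR 0.762). Negative log2FC in both groups were found for Vim (-0.38 and -0.54, FDR 0.617 and 0.265), S1pr3 (-0.59 and -0.99, FDR 0.549 and 0.144) and Steap4 (-0.92 and -1.05, FDR 0.521 and 0.28) in A+/Pwt/wt and A+/Pki/ki females, respectively. For S1pr3 the A- mice ran from 8.1 to 25.6 CPM with a median of 14, the A+/Pwt/wt mice were at 16.6, 8.08, 9.3 and 7.78 and the A+/Pki/ki mice at 9.56, 11, 5.75 and 5.66 CPM. Vim passed the edgeR test without mouse 331 of the A+/Pwt/wt females (-0.73, FDR 0.0366) and without mouse 335 of the A+/Pki/ki females (-0.82, FDR 0.0272). Osmr had a log2FC of -0.04 (interval -0.63 to 0.54) in A+/Pwt/wt and -0.51 (-1.12 to 0.11, FDR 0.421) in A+/Pki/ki females. Cd44 had one of -0.01 (-0.48 to 0.45) and 0.40 (-0.05 to 0.86, FDR 0.384), respectively.

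edgeR called 0 of 7 members in A+/Pwt/wt females, where 1 (Gfap) had an unadjusted p under 0.05, DESeq2 called 1 and limma 0, against 1.29% of all genes called. In A+/Pki/ki females edgeR called 0 of 7 as well, with 4 (Gfap, Vim, S1pr3 and Steap4) at an unadjusted p under 0.05, and DESeq2 called 1 and limma 0, against 1.64% of all genes. Plaque microglia genes were higher in the same libraries, 10 of 14 in A+/Pwt/wt and 12 of 14 in A+/Pki/ki mice. Spp1, which encodes the CD44 ligand osteopontin, rose from 41 ± 17.2 CPM (SD, n = 7) to 285 ± 135 (SD, n = 4; log2FC 2.81, FDR 0.00232) in A+/Pwt/wt and to 154 ± 36.5 (SD, n = 4; log2FC 1.91, FDR 0.0143) in A+/Pki/ki females. Another hyaluronan receptor gene, Hmmr, was called in A+/Pki/ki females (1.35, FDR 0.0447). The homeostatic astrocyte genes had a median log2FC of -0.06 in A+/Pwt/wt and -0.74 in A+/Pki/ki females, with 0 of 20 called by edgeR in either and 0 and 2 at an unadjusted p under 0.05, and 11 mural and fibroblast genes had medians of -0.41 and -0.85, with 0 called (1 with an unadjusted p under 0.05) and 1 called lower (9 with an unadjusted p under 0.05). All 7 border macrophage genes were on the negative side in both groups, with medians of -1.01 and -0.81. Of these, Cd163 and Pf4 were called lower in A+/Pwt/wt and Cbr2 in A+/Pki/ki females, and 7 and 6 of 7 had an unadjusted p under 0.05. Their sum was 260 to 590 CPM in A-/Pwt/wt, 186 to 219 CPM in A+/Pwt/wt and 194 to 304 CPM in A+/Pki/ki females. The part of these cells in the values of Vim, S1pr3 and Steap4 was not tested. The column names carry one tag for the A- and another for the A+ females, so that transgene and tag cannot be told apart here.

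In CD11b+ cells of A+ females the variant effect did not pass the test for any member. Gfap and Serpina3n had negative differences in A+/Pki/ki females, with log2FC of -0.63 (SE 0.36, interval -1.46 to 0.21, FDR 0.853) and -0.81 (SE 0.54, interval -2.04 to 0.41, FDR 0.853). Vim, Osmr, S1pr3 and Steap4 were also on the negative side, at -0.21, -0.51, -0.45 and -0.18. With the astrocyte score (built from 20 homeostatic astrocyte genes) as a covariate Gfap was at -0.06, Serpina3n at -0.16 and Osmr at -0.14, and Vim (0.39), S1pr3 (0.06) and Steap4 (0.03) turned positive. Without A+/Pwt/wt mouse 331 Gfap was at -0.28, Osmr at -0.25, S1pr3 at -0.12, Steap4 at -0.05 and Vim at 0.14. Cd44 alone was on the positive side. It was at 8.98, 11.6, 12.5 and 11.5 CPM in A+/Pwt/wt and at 16.3, 16, 14.4 and 13.5 CPM in A+/Pki/ki females, and the groups did not overlap. The log2FC of Cd44 was 0.38 (SE 0.14) with an FDR of 0.853. edgeR called 0 of 7 members, with 1 (Cd44) at an unadjusted p under 0.05, DESeq2 and limma called 0, and 0% of 17039 genes were called. Without overlap were 2.81% of all genes. All 20 homeostatic astrocyte genes were on the negative side too (median log2FC -0.72, 0 called by edgeR, 0 with an unadjusted p under 0.05), and their sum was 1674 to 4223 CPM in A+/Pki/ki and 2451 to 4947 CPM in A+/Pwt/wt females. So were all 12 neuronal (median -0.84), 9 oligodendrocyte (-0.29) and 9 endothelial genes (-0.49). Of 11 mural and fibroblast genes 1 was positive (median -0.53). All 10 microglial genes were on the positive side (median 0.22). In these lists edgeR called 0 genes. The part of these cell types in the member values was not tested. The sum of 9 neutrophil and monocyte genes ran from 51.9 to 1817 CPM (median 378) in A+/Pki/ki females, with the highest value in mouse 335. In A+/Pwt/wt females the sum ran from 67.3 to 153 CPM (median 135). All 9 genes were on the positive side (median log2FC 2.48, 0 called by edgeR, 7 with an unadjusted p under 0.05). The part of these cells in the Cd44 values was not tested. Without mouse 335 the log2FC of Cd44 was 0.36 (FDR 0.174), within an FDR range of 0.174 to 1 on leaving out single mice.

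**Figure D2:**
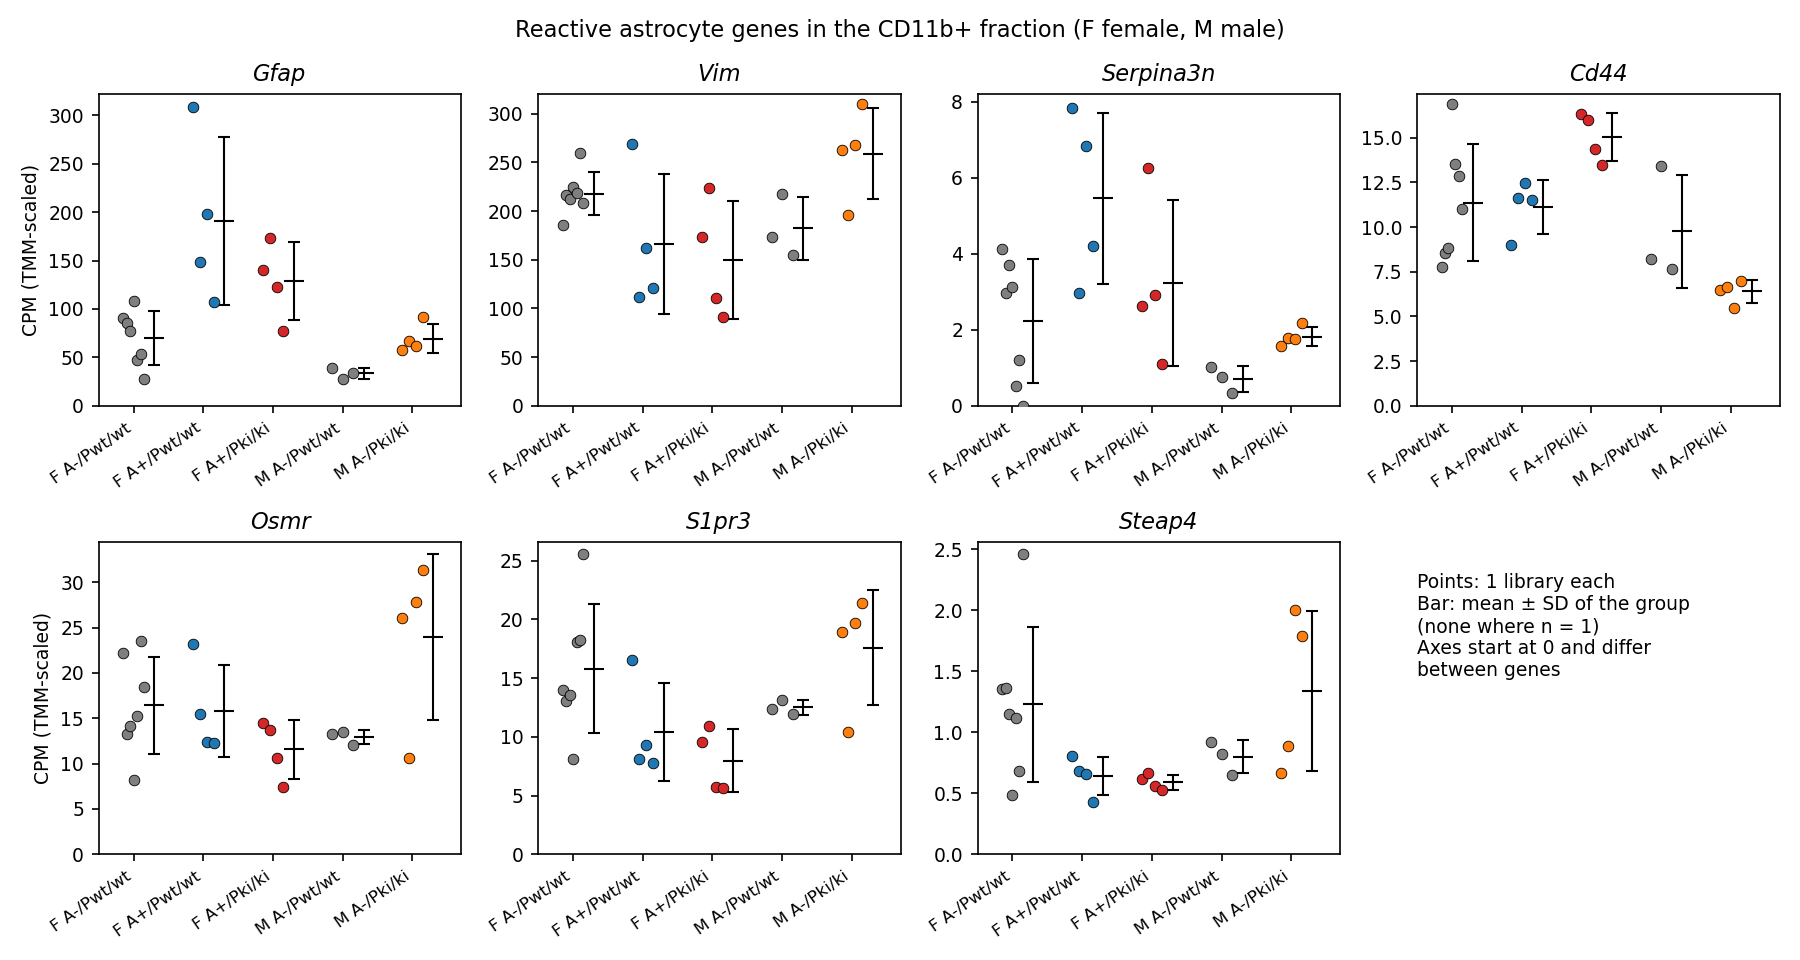
Levels of the 7 genes in the CD11b+ fraction in CPM, 1 point per mouse with mean ± SD beside each group, for 3 female groups (F) and 2 male groups (M). Male A-/Pki/ki points lie above male A-/Pwt/wt points for Gfap and Serpina3n and below them for Cd44, whereas Cd44 points lie above in A+/Pki/ki against A+/Pwt/wt females.

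In males without amyloid transgenes the variant was tested on its own, and here Gfap and Serpina3n were higher in KI mice. Gfap was at 38.5, 27.7 and 33.9 CPM in the 3 A-/Pwt/wt males and at 57.6, 66.8, 61.6 and 92 CPM in the 4 A-/Pki/ki males. The groups did not overlap, and Gfap was 2.08-fold higher (log2FC 1.06, SE 0.18, FDR 0.00699). Serpina3n was at 1.02, 0.764 and 0.326 CPM in A-/Pwt/wt and at 1.58, 1.78, 1.74 and 2.17 CPM in A-/Pki/ki males, again with no overlap. It was 2.55-fold higher (log2FC 1.35, SE 0.38, FDR 0.0419), on 6 to 35 reads a library. Cd44 did not pass the test and lay on the other side without overlap, at 8.23, 13.4 and 7.66 CPM against 6.49, 6.62, 5.49 and 6.99 CPM (log2FC -0.61, SE 0.22, FDR 0.0876), and it passed with scaling by library totals only (-0.71, FDR 0.0425).

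Vim, Osmr and S1pr3 each lay above every A-/Pwt/wt value in 3 of the 4 KI males, and none passed the test. Osmr was at 13.3, 13.5 and 12 CPM in A-/Pwt/wt and at 26.1, 10.6, 27.9 and 31.4 CPM in A-/Pki/ki males (log2FC 0.89, SE 0.31, FDR 0.0768). S1pr3 was at 12.4, 13.2 and 12 CPM against 19, 10.4, 19.7 and 21.4 CPM (log2FC 0.50, SE 0.22, FDR 0.157). In both genes mouse 104 stood below all wild-type males, apart from the other KI mice. Without mouse 104 edgeR called Osmr (log2FC 1.14, FDR 0.00145), S1pr3 (0.68, FDR 0.00272) and Vim (0.62, FDR 0.00756), and without any other single male it called none of these 3. Vim was at 182 ± 32.1 CPM (SD, n = 3) against 259 ± 47.1 CPM (SD, n = 4; log2FC 0.51, FDR 0.0712), and Steap4 at 0.798 ± 0.135 (SD, n = 3) against 1.34 ± 0.658 CPM (SD, n = 4; log2FC 0.72, FDR 0.286). Called were 2 of the 7 genes, against 16.4% of all 16373 genes, and 3 of the 7 showed no overlap, against 30.8% of all genes.

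Markers of other cells differed in the same male libraries. Of the 20 homeostatic astrocyte genes 17 were higher in A-/Pki/ki males (median log2FC 1.23, close to the 1.06 of Gfap), among them Aldoc (1.53) and Mlc1 (1.60), and their sum was 3164 to 5048 CPM against 2326 to 2791 CPM, with no overlap. All 12 neuronal genes were higher (median 2.11), as were 6 of 9 oligodendrocyte genes (median 1.09), and the oligodendrocyte sum was 26502 to 60470 CPM against 18463 to 23310 CPM. Mitochondrial transcripts made up 7.4 to 12.8% of reads in A-/Pki/ki and 3.97 to 5.02% in A-/Pwt/wt males. The 10 microglial genes had a median of -0.40 with 1 called lower. Vascular genes lay on the same side. All 9 endothelial genes were positive (median 0.74, 3 called higher: Emcn, Ly6c1 and Cldn5), and all 11 mural and fibroblast genes were (median 0.64, 2 called higher: Vtn and Kcnj8). The endothelial sum was 1266 to 2704 CPM against 1106 to 1591 CPM and the mural and fibroblast sum 593 to 1251 CPM against 617 to 742 CPM. The part of neuronal, oligodendrocyte and vascular RNA and of the mitochondrial share in the member genes was not tested. With the astrocyte score as a covariate the log2FC of Gfap was 0.54 (FDR 0.51) and that of Serpina3n 0.77 (FDR 0.685). Osmr (-0.87, FDR 0.457), S1pr3 (-0.63, FDR 0.505), Steap4 (-0.85, FDR 0.698) and Vim (-0.08, FDR 0.933) turned negative, and 0 of 7 members were called in edgeR. As the astrocyte sum did not overlap between the genotypes, genotype and astrocyte RNA cannot be told apart in this fit of 7 libraries. Over all alternatives the FDR of Gfap ran from 1.73e-06 to 0.51 and that of Serpina3n from 0.00987 to 0.685. Serpina3n also lost its call on leaving out any one of 6 of the 7 males, with FDR values up to 0.122.

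Other genes of the members' pathways were called in both directions in males, where 16.4% of all 16373 genes were called. The counts below come from short lists and are given as a description beside that share. In the oncostatin M and gp130 pathway 1 of 15 tested genes was higher and 3 were lower. The higher one was Cntfr, the receptor for ciliary neurotrophic factor, at 24.8 ± 5.36 (SD, n = 4) against 9.64 ± 0.234 CPM (SD, n = 3; log2FC 1.37, FDR 0.00376). The lower ones were the cytokine gene Clcf1 (-0.63, FDR 0.00855), the kinase gene Tyk2 (-0.45, FDR 0.0166) and Socs3, the feedback inhibitor (-0.55, FDR 0.0404). Among 9 sphingosine 1-phosphate genes only S1pr5, a receptor of oligodendrocytes, was called (1.14, FDR 0.0308). The other intermediate filament genes called were the neuronal ones Ina (2.37), Nefl (2.05), Nefm (2.12) and Nefh (1.53), 4 of 13, whereas the progenitor filament genes Nes (0.56, FDR 0.0627) and Synm (0.67, FDR 0.069) did not pass. Of the pan-reactive genes Hspb1 (0.82, FDR 0.0343) and Aspg (1.19, FDR 0.0379) were higher. The inducer Il1a, made by microglia, was lower (-0.60, FDR 0.024), the only one of 6 called.

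**Figure D3:**
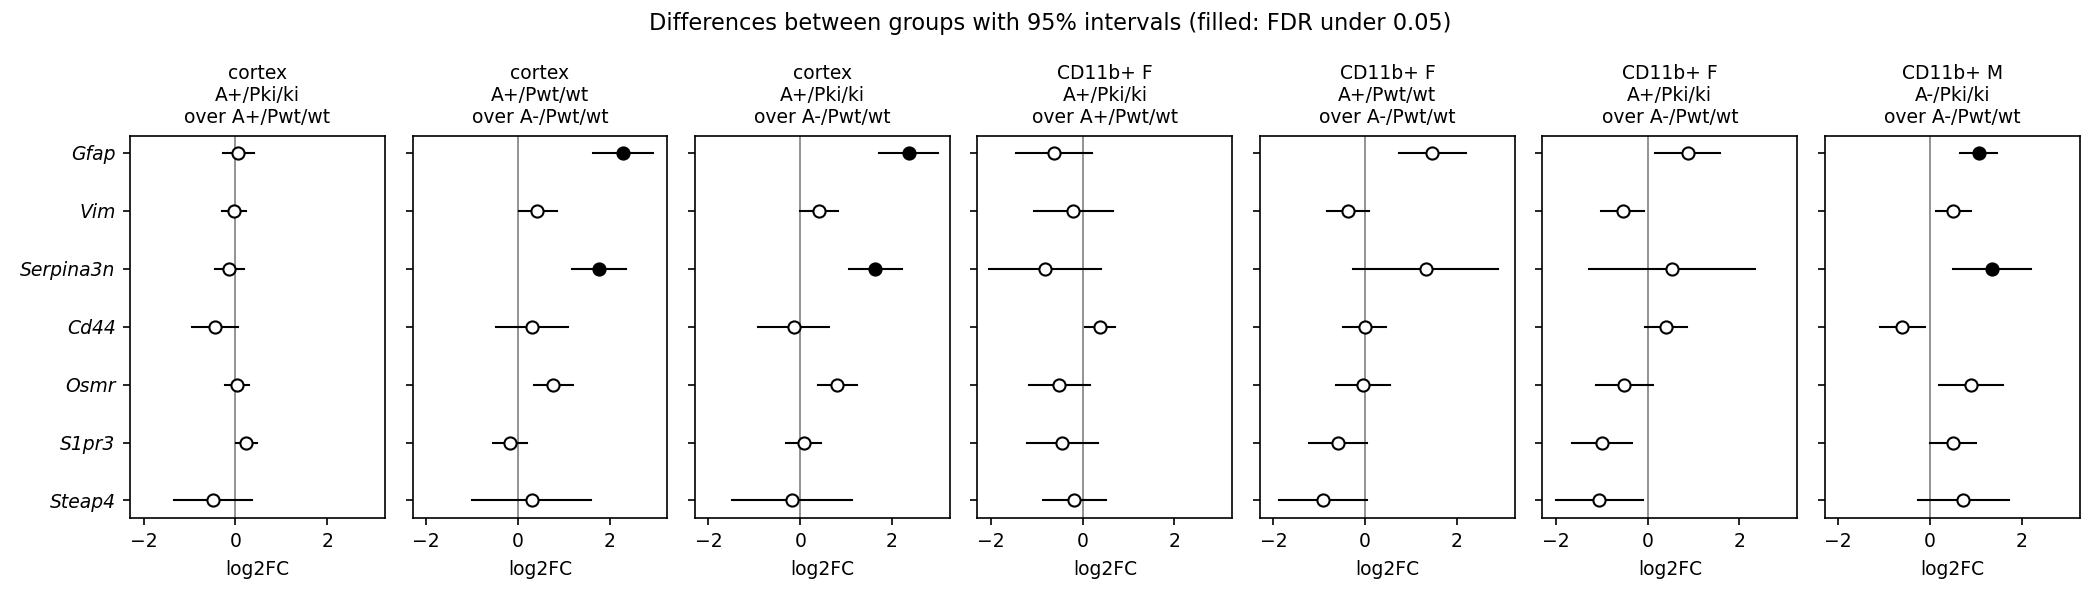
Log2FC of each gene with its 95% interval in the 7 comparisons between groups, filled where the FDR was under 0.05. Gfap and Serpina3n are filled in both cortex comparisons with the A-/Pwt/wt mouse (2.30 and 1.76, 2.37 and 1.64) and in A-/Pki/ki against A-/Pwt/wt males (1.06 and 1.35), and no gene is filled elsewhere.

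The effect of the variant could be set between the A- males and the A+ females in one fit of both CD11b+ tables. The difference of the effects was positive for Gfap (log2 1.71, SE 0.46, interval 0.73 to 2.69), Serpina3n (2.19, SE 0.73) and Osmr (1.42, SE 0.46) and negative for Cd44 (-0.96, SE 0.26), each with an FDR of 0.143. The difference was positive for all 20 homeostatic astrocyte genes as well (median 2.00), 18 of them with an unadjusted p under 0.05 and 0 called by edgeR. edgeR called 0 of 7 members, with 5 at an unadjusted p under 0.05, DESeq2 called 3 (Gfap, Serpina3n and Cd44), and 0% of 17619 genes were called in edgeR. Without mouse 335 of the A+/Pki/ki females edgeR called 4. Sex, transgene and column tag cannot be told apart in this comparison.

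Because the CD11b+ libraries differed in how much astrocyte RNA they held, Gfap was also set against the summed CPM of the 20 homeostatic astrocyte genes of the same library. This ratio was chosen after the levels had been seen and is given as a description. Gfap made up 2.64% of that sum in the A-/Pwt/wt cortex, 8.61 to 13.9% in A+/Pwt/wt cortex and 8.53 to 14.9% in A+/Pki/ki cortex. In female CD11b+ cells it made up 1.05 to 2.33% in A-/Pwt/wt, 4.39 to 6.24% in A+/Pwt/wt and 4.12 to 5.74% in A+/Pki/ki mice. On this scale the A+ and A- females no longer overlapped, whereas they did on the CPM scale. How many of all genes separate on this scale was not computed. Serpina3n set against the same sum separated A+/Pwt/wt but not A+/Pki/ki females from A- females. Vim, Cd44, Osmr, S1pr3 and Steap4 overlapped in both comparisons. In males Gfap made up 1.07 to 1.46% of the sum in A-/Pwt/wt and 1.26 to 2.11% in A-/Pki/ki mice, and these groups overlapped. With the astrocyte score as a covariate in edgeR the log2FC of Gfap in A+/Pwt/wt against A-/Pwt/wt females was 1.41 with an FDR of 0.00122, the lowest of that range of alternatives, and in A+/Pki/ki females it was 1.35 with an FDR of 0.00947, against 0.00947 to 0.318 over the alternatives.

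**Figure D4:**
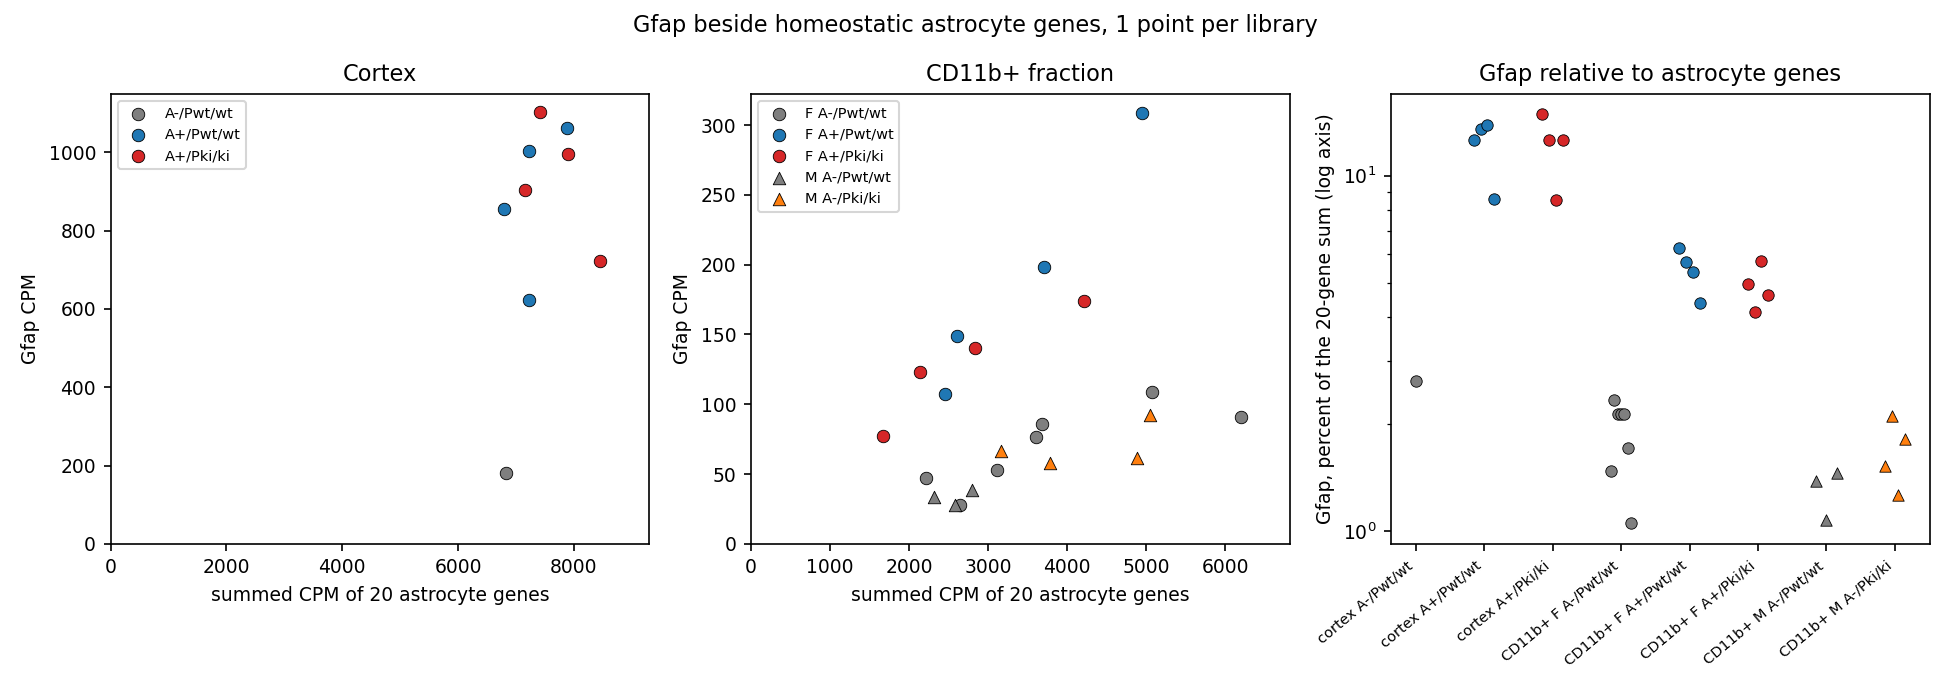
Gfap in CPM against the summed CPM of 20 homeostatic astrocyte genes in cortex and in the CD11b+ fraction, 1 point per mouse (circles females, triangles males), and Gfap as a percentage of that sum on a log axis. The A+ groups lie at 4.12 to 6.24% in CD11b+ cells and 8.53 to 14.9% in cortex, above the A- females at 1.05 to 2.33% and the A- cortex at 2.64%.

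Across the 8 A+ cortex libraries the filament genes and Serpina3n varied together, and of the receptors Cd44 was closest to them. Pearson's r of log2 CPM was 0.877 between Gfap and Serpina3n, 0.794 between Gfap and Vim and 0.901 between Vim and Serpina3n. Cd44 had an r of 0.819 with Serpina3n, 0.803 with Vim and 0.475 with Gfap. Mouse 257 had Cd44 at 12.1 CPM, against 4.75 to 6.92 CPM in the other A+ mice. The same mouse had the highest Vim and Serpina3n levels of the A+ cortex. Osmr had one of 0.521 with Vim, 0.253 with Serpina3n and 0.098 with Gfap, and S1pr3 of 0.409, 0.006 and 0.130. Steap4, on few reads, had 0.773 with Serpina3n. The median r of Gfap with the homeostatic astrocyte genes was 0.043. Serpina3n ranked 91 among 11850 genes by likeness to Gfap, behind Rab9 (0.980), Glrx2 (0.974) and Pdhb (0.972). S1pr3 was most like Ppp1r3c (0.969), an astrocyte gene of glycogen metabolism, and Ly6c1 (0.966), an endothelial gene. With 8 libraries from mice of both genotypes many genes reach a high r, and these values are descriptions. The shallowest of these libraries, of mice 257, 259 and 184 (25.2, 26.4 and 27.8 M reads), held the highest levels of Gfap and of Serpina3n. The part of depth in these r was not tested. The 15 female CD11b+ libraries also differ in transgene and in the amount of other cells' RNA. Across them r between Gfap and Serpina3n was 0.876, but Vim had an r of -0.095 with Gfap and -0.029 with Serpina3n. S1pr3 was most like P4ha2 (0.971), Hdac7 and Lamb2 there, and had an r of -0.459 with Gfap.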

How the data were processed

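RNA-seq was carried out by the authors on cortex and CD11b+ cells with poly(A) libraries and paired-end reads. The deposited read counts are raw counts per gene, made by the authors, per the submitters' processing notes, with STAR (version 2.7.9a) on GRCm38 and featureCounts (version 2.12.0) after trimming with Trimmomatic (version 0.39). Only uniquely mapped reads were counted, irrespective of strand, which affects genes with near copies or antisense partners. The deposited log2 values are the authors' variance-stabilised counts and served one alternative.

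From the counts, genes with at least 10 reads in at least 3 fitted libraries were tested by edgeR's quasi-likelihood test (edgeR 4.0.16, R 4.3.3), two-sided, with TMM scaling and Benjamini-Hochberg adjustment over all tested genes. Genes with an FDR under 0.05 were called. Comparisons with the single A- cortex were fitted on all 9 cortex libraries, the others on the groups compared. Intervals are 95%. CPM used TMM-scaled library sizes of each table. Alternatives were DESeq2 (1.42.0), limma (3.58.1), other scalings and filters, other sets of libraries, an astrocyte score as covariate, and leaving out each mouse. The astrocyte score is built from the 20 homeostatic genes. Scripts were tested on simulated data. The members and the 22 gene lists were chosen with earlier results of these data known. Named list genes are those with the largest called changes or the highest levels, and genes alike are ranked by Pearson's r of log2 CPM. RefSeq windows matched all 7 members.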

Additional observations from a re-analysis of the deposited data

Results flagged for a closer look

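Cd44 in CD11b+ cells was singled out because mice with and without the PLCγ2-P522R variant did not overlap in 2 settings, in opposite directions. All 7 members had log2FC of opposite sign in the 2 settings, but only Cd44 was without overlap in both. The direction of Cd44 was shared by all 10 microglial genes, with median log2FC of 0.22 in A+ females and -0.40 in A- males. All 20 homeostatic astrocyte genes went the other way, with medians of -0.72 and 1.23. The part of microglial RNA in the Cd44 values was not tested. Cd44 passed the edgeR test in neither (FDR 0.853 in A+ females, 0.0876 in A- males). All 4 A+/Pki/ki females (13.5 to 16.3 CPM) lay above all 4 A+/Pwt/wt females (8.98 to 12.5 CPM). In contrast, all 4 A-/Pki/ki males (5.49 to 6.99 CPM) lay below all 3 A-/Pwt/wt males (7.66 to 13.4 CPM). Without overlap were 2.81% of all genes in the female pair and 30.8% in the male pair. The variant effect on Cd44 in males minus that in females was -0.96 on the log2 scale (SE 0.26, 95% interval -1.52 to -0.39). Cd44 was picked by the same values, so this difference and its FDR describe the pattern and give it no separate support. Its FDR was 0.143 in edgeR, 0.026 to 0.143 over the 5 alternatives and 0.0134 to 0.264 on leaving out single mice. Sex, transgene and column tag cannot be told apart in this difference. Dixon's test passed its 95% limit in 0 of 42 groups of the 7 genes, where chance gives about 1 in 20. With few mice a group this test can miss a mouse that differs.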

How the results depend on the processing

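The 56 log2FC of the 7 genes in 8 comparisons kept their direction and their side of the threshold in 871 of 938 alternatives. They gained a call in 28, lost one in 8 and changed sign in 31. The cause was not tested. In cortex the counts of called members held, at 2 to 3 against the A- mouse and 0 between A+/Pki/ki and A+/Pwt/wt.

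In CD11b+ females, A+/Pwt/wt against A-/Pwt/wt, 1 member was called (Gfap) with library totals only, with no low-count filter, with DESeq2, with a fit on all groups and with the astrocyte score, and 0 to 1 on leaving out single mice (Gfap without A- mouse 223, Vim at -0.73 without A+ mouse 331). For A+/Pki/ki against A-/Pwt/wt females, 1 was called with DESeq2 (S1pr3) and 1 with the astrocyte score (Gfap), and 0 to 1 on leaving out single mice (Vim at -0.82 without mouse 335). In males 4 were called with no low-count filter and 4 with DESeq2, 0 with the astrocyte score, and 1 to 5 on leaving out single mice, the highest without KI mouse 104. For the male minus female effect DESeq2 called 3, and leaving out single mice gave 0 to 4, the highest without A+/Pki/ki female 335.

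With the astrocyte score as covariate the sign changed for Osmr between A+/Pki/ki and A+/Pwt/wt cortex (-0.05), for Vim (0.39), S1pr3 (0.06) and Steap4 (0.03) between A+/Pki/ki and A+/Pwt/wt females, and for Vim (-0.08), Osmr (-0.87), S1pr3 (-0.63) and Steap4 (-0.85) in males. The male fit with this covariate cannot tell genotype and astrocyte RNA apart, since the astrocyte sum did not overlap between the male genotypes. Cd44 in A+/Pwt/wt against A-/Pwt/wt females turned to 0.01 with no filter and 0.02 with limma.

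On leaving out single mice the log2FC between A+/Pki/ki and A+/Pwt/wt cortex ranged from -0.06 to 0.18 for Gfap, -0.10 to 0.09 for Vim, -0.24 to 0.01 for Serpina3n and -0.02 to 0.12 for Osmr. Cd44 in A+/Pwt/wt against A- cortex ranged from -0.02 to 0.46. In females Vim ranged from -0.46 to 0.14 (A+/Pki/ki against A+/Pwt/wt), Cd44 from -0.10 to 0.09 and Osmr from -0.30 to 0.07 (A+/Pwt/wt against A-/Pwt/wt), and Serpina3n from -0.04 to 0.83 (A+/Pki/ki against A-/Pwt/wt).

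No paired analysis was possible because the groups compared share fewer than 2 replicate numbers. Depth limits Steap4, with 8 to 62 reads a library, and Serpina3n in CD11b+ cells, with 0 to 175 reads. With 1 A- cortex library the transgene effect in cortex has no control spread of its own.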

Other observations

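Across the 15 female CD11b+ libraries the genes most like each member by Pearson's r of log2 CPM differed, given as descriptions over libraries that also differ in transgene and in cell mixture. Cd44 was most like Cytip (0.825), a regulator of leukocyte adhesion, and its median r with the homeostatic astrocyte genes was -0.355. S1pr3 was most like P4ha2 (0.971) and Lamb2 (0.963), genes of collagen and basement membrane assembly, and Osmr was most like Stard13 (0.935) and Lamc3 (0.931). Gfap had a median r of 0.391 with the homeostatic astrocyte genes and Serpina3n of 0.487.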
